A study of Mus musculus with 16 samples.

Results

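The genes described here are the 4 transcription factors that define the thyroid follicular cell, *Pax8*, *Nkx2-1*, *Foxe1* and *Hhex*, and the 3 members of the GLIS zinc finger family, *Glis1*, *Glis2* and *Glis3*. They were taken by symbol from the table of RNA-Seq counts, where each of the 7 symbols matched 1 of 25611 entries. The libraries came from the thyroids of 16 female C57BL/6 mice, 4 in each of 4 groups, aged 4 weeks by the study's methods and 1 month by the labels. WT mice were fed a normal diet (ND, NIH-31) or a low iodine diet (LID, TD.95125) for 6 days, giving the groups WT(ND) and WT(LID). The conditional knockout groups, *Glis3*-Pax8Cre(ND) and *Glis3*-Pax8Cre(LID), received the same diets and carried the alleles B6;129-Glis3<tm2Amj> and Pax8<tm1.1(cre)Mbu>. Cre expressed from the *Pax8* locus removes exon 5 of *Glis3*, which encodes zinc fingers 3 and 4, in *Pax8*-expressing follicular cells, so other cells of the gland keep an intact *Glis3*. The knockout mice carry the engineered *Pax8* allele and the WT mice do not, so loss of GLIS3 and the *Pax8* Cre allele cannot be told apart in any genotype comparison. The questions were how the 7 genes differed between genotypes and diets, and whether another factor or another GLIS gene was higher where *Glis3* was deleted.

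Thyroid follicular cells are set apart in the embryonic foregut by the joint expression of PAX8, a paired-box factor, NKX2-1, an NK2 homeodomain factor, FOXE1, a forkhead factor, and HHEX, a divergent homeodomain factor. No single one of these factors is restricted to the thyroid, and in the adult gland they keep up the transcription of genes for thyroglobulin and the iodide transporter. GLIS proteins are Krüppel-like factors with a DNA-binding domain of zinc fingers related to that of the GLI and ZIC families, and GLIS3 is required for thyroid hormone synthesis and for the response of follicular cells to thyroid-stimulating hormone (TSH). A low iodine diet lowers hormone output and raises TSH.

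Levels are in CPM, counts scaled to the size of the library after edgeR's trimmed mean of M-values (TMM) normalization, and are given for single mice or as the group mean ± SD (n = 4). Differences are log2 fold changes with their standard error (SE). Between 13892352 and 461077969 read pairs were counted per mouse, and 3 counts, the limit that a count of 0 allows, corresponded to between 0.00674 and 0.188 CPM. These limits cover counting error only. The tissue label was checked on follicular markers: the summed level of 6 follicular markers was never below 98026 CPM and none of them was at 0. On the ND that sum lay from 203874 to 307572 CPM in WT and from 125453 to 185607 CPM in knockout mice, and under LID from 222091 to 333272 CPM in WT and from 98026 to 164927 CPM in knockout mice. In these bulk samples, fewer cells of a type and less RNA per cell cannot be told apart. *Glis3*-Pax8Cre(ND) replicate 4 had a thymocyte marker sum of 2136 CPM over 7 markers, against at most 271 CPM in the other mice.

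The library labelled WT(ND) replicate 3 stood apart from the other 3 WT(ND) libraries. Its *Pax8* level was 996 CPM, and its levels of *Rbm11* (9.92 CPM), *Ntn5* (8.73 CPM), *Cpne4* (59.1 CPM) and *Sftpb* (38.0 CPM) were far above those of the other WT mice and close to or part of the way to those of the knockout mice. *Slc5a5*, the iodide transporter, was lower there at 81.8 CPM than in the other WT(ND) mice at 132 to 187 CPM. It was not like the knockout libraries in all genes: its *Glis2* level was 24.2 CPM and its *Slc5a5* level remained above the 8.43 to 15.8 CPM of *Glis3*-Pax8Cre(ND). A set of genes was taken that separated the genotypes under LID and separated the other WT(ND) mice from *Glis3*-Pax8Cre(ND). Of 340 such genes higher in knockout mice, this library was at or past the knockout edge for 104, between the genotypes for 167 and at or past the WT edge for 69. Of 352 such genes lower in knockout mice, the numbers were 126, 164 and 62. When each of the other 3 WT(ND) mice was left out in the same way, between 2 and 12 of 231 to 243 genes were at or past the knockout edge. In those sets replicate 3 stayed among the reference WT(ND) mice, so genes where it overlapped the knockout mice were left out. These numbers are therefore not like for like with those of replicate 3. Because the library labelled WT(ND) replicate 3 stood apart, results of single genes that rest on WT(ND) are also given without it.

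*Pax8* was higher without functional *Glis3* in follicular cells under LID, by 2.61-fold. *Pax8* (Entrez 18510, mm10 chromosome 2, 24420551 to 24475599, minus strand) was at 329.8, 339, 329.7 and 280.2 CPM in the 4 WT(LID) mice. In the 4 *Glis3*-Pax8Cre(LID) mice it was at 936, 753, 828 and 828 CPM. Every knockout mouse was above every WT mouse. The log2 fold change was 1.39, with an SE of 0.27 and an adjusted p = 0.00101 (quasi-likelihood test of edgeR, adjusted by Benjamini and Hochberg's method over 16630 genes), and *Pax8* was called in all 24 alternative settings, with log2 fold changes of 1.33 to 1.54. The summed follicular markers moved the other way in this comparison, as given above.

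On the ND the *Pax8* comparison depended on the library labelled WT(ND) replicate 3. *Pax8* was at 397, 374, 996 and 385 CPM in WT(ND). In *Glis3*-Pax8Cre(ND) it was at 958, 989, 944 and 643 CPM. With all mice that WT library made the groups overlap, and the difference was 0.72 (SE 0.26, adjusted p = 0.0668 by edgeR). Without it the difference was 1.21 (adjusted p = 2.22e-05 by edgeR), and leaving out *Glis3*-Pax8Cre(ND) replicate 4 as well, the lowest of its group and the one with the thymocyte markers, gave 1.33 (adjusted p = 2.89e-07). The adjusted p over all alternatives ran from 2.89e-07 to 0.197. The diet comparison in WT mice turned on the same library. *Pax8* was lower in WT(LID) than in WT(ND) by a log2 fold change of -0.75 (SE 0.26, adjusted p = 0.0313 by edgeR) with it and by -0.26 (adjusted p = 0.142) without it. In knockout mice the diets differed by -0.08 (SE 0.26, adjusted p = 0.848), with overlapping groups.

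**Figure D1:**
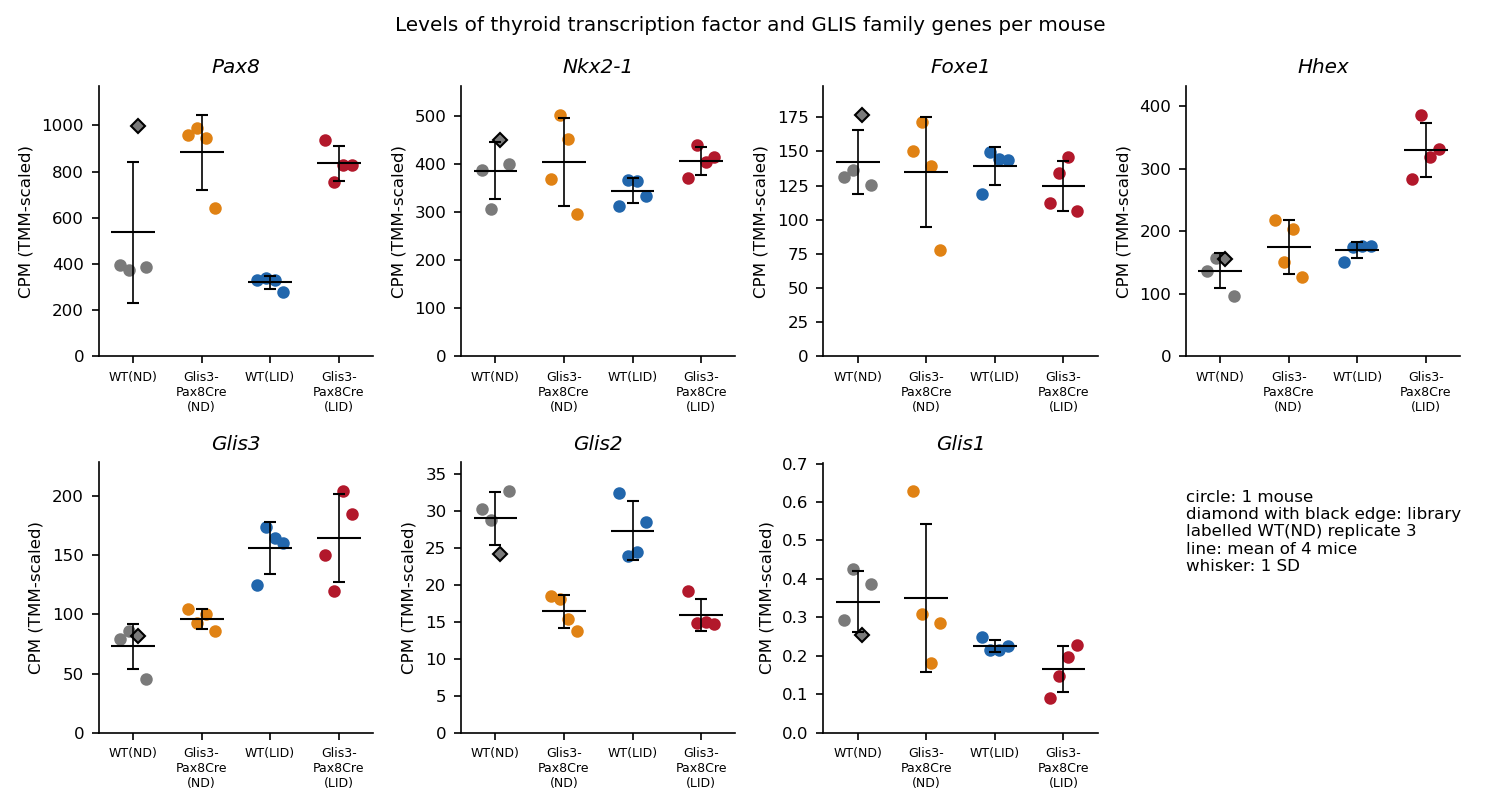
Level of each of the 7 genes in every mouse, in CPM on a linear axis from 0, for WT and *Glis3*-Pax8Cre mice on each diet; circles are mice, the diamond is the library labelled WT(ND) replicate 3, lines are means of 4 mice and whiskers 1 SD. *Pax8* and *Hhex* are highest in groups of knockout mice, *Glis2* is lower in both knockout groups, *Glis3* is higher in both LID groups, and the diamond lies with the knockout mice for *Pax8* but not for *Glis2*.

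*Nkx2-1* and *Foxe1* did not pass the test in any of the 4 comparisons. *Nkx2-1* (Entrez 21869, chromosome 12, 56531935 to 56536908, minus strand), the factor best known for driving thyroid, lung and forebrain programs, was at 312, 366, 365 and 334 CPM in WT(LID). In *Glis3*-Pax8Cre(LID) it was at 369.6, 439, 403 and 413 CPM. The 2 groups did not overlap, but the difference was small, a log2 fold change of 0.24 (SE 0.14, adjusted p = 0.236 by edgeR). It was called with library size alone (0.39, adjusted p = 0.0272) and when the fit held only these 8 mice (0.23, adjusted p = 0.0468). WT(ND) mice had *Nkx2-1* at 387, 307, 450.2 and 399 CPM and *Glis3*-Pax8Cre(ND) mice at 368, 502, 451 and 296 CPM, and these groups overlapped, also without the library labelled WT(ND) replicate 3 (0.17, adjusted p = 0.472 by edgeR). The diets differed in *Nkx2-1* by a log2 fold change of -0.16 (SE 0.14, adjusted p = 0.389 by edgeR, or -0.0736 without that library) in WT mice and of 0.01 (SE 0.14, adjusted p = 0.978) in knockout mice.

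*Foxe1* (Entrez 110805, chromosome 4, 46344194 to 46345309, plus strand), which is needed for migration of the thyroid primordium, varied least between group means, from 125 ± 18.5 CPM in *Glis3*-Pax8Cre(LID) to 142 ± 23.4 CPM in WT(ND). WT(LID) was at 139 ± 13.9 CPM and *Glis3*-Pax8Cre(ND) at 135 ± 40.4 CPM. The groups overlapped in all 4 comparisons, and the log2 fold changes lay between -0.16 (SE 0.19, adjusted p = 0.585 by edgeR) for genotype under LID and -0.03 (SE 0.19, adjusted p = 0.913) for diet in WT mice. Without the library labelled WT(ND) replicate 3 the genotype value on the ND was 0.0563 and that for diet in WT mice 0.0966, neither called. The lowest mouse, at 77.6 CPM, was *Glis3*-Pax8Cre(ND) replicate 4, which was also lowest of its group for *Pax8*, *Nkx2-1* and *Hhex*.

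*Hhex* was highest where *Glis3* deletion and LID were combined. *Hhex* (Entrez 15242, chromosome 19, 37434841 to 37440731, plus strand), a homeodomain protein that acts mostly as a repressor, was at 137, 158, 155 and 96.7 CPM in WT(ND). In *Glis3*-Pax8Cre(ND) it was at 217, 150.4, 203 and 127 CPM, and in WT(LID) at 151, 174, 177 and 176 CPM. In *Glis3*-Pax8Cre(LID) it was at 284, 386, 319 and 331 CPM. The 3 other groups overlapped one another and lay below every *Glis3*-Pax8Cre(LID) mouse. Under LID *Hhex* was 1.95-fold higher in knockout than in WT mice (log2 fold change 0.96, SE 0.17, adjusted p = 0.000597 by edgeR). In knockout mice it was 1.89-fold higher under LID than on the ND (log2 fold change 0.92, SE 0.17, adjusted p = 0.00143 by edgeR). Both calls held in all 24 alternatives.

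For *Hhex* the genotype difference on the ND was 0.35 on the log2 scale (SE 0.17, adjusted p = 0.164 by edgeR). The value was 0.43 (adjusted p = 0.119) without the library labelled WT(ND) replicate 3, and 0.55 (adjusted p = 0.0294) without that library and *Glis3*-Pax8Cre(ND) replicate 4. The diet difference in WT mice was 0.31 (SE 0.17, adjusted p = 0.161), and 0.39 (adjusted p = 0.124) without the former. The genotype effect under LID exceeded that on the ND by 0.61 on the log2 scale (SE 0.24, unadjusted p = 0.0241, adjusted p = 0.120 by edgeR) or by 0.52 without the library labelled WT(ND) replicate 3 (adjusted p = 0.218), so a dependence of the genotype effect on diet did not pass the test.

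The promoters of *Hhex* and *Pax8*, the 2 factors higher in knockout than in WT mice under LID, are shown because GLIS proteins bind a guanine-rich site. The promoter table (RefSeq, GRCm38.p6) held 5 of the 7 genes, all but *Foxe1* and *Glis2*. The core motif TGGGGGG was searched on both strands of the 250 bases before the start site. It had 1 match in *Hhex*, 151 bases before the start, and 0 matches in *Pax8*, *Nkx2-1*, *Glis1* and *Glis3*. Of 32851 mouse promoters of this length, 2519 (7.67%) hold it. The longer form TGGGGGGT, which contains the core, had no match in the 5 promoters and is found in 1.36% of all. In the sequences, written 5′ to 3′ on the strand of the gene, capitals mark the core motif. The windows are chr19:37434591-37434840 on the plus strand for *Hhex* and chr2:24475600-24475849 on the minus strand for *Pax8*.
Hhex: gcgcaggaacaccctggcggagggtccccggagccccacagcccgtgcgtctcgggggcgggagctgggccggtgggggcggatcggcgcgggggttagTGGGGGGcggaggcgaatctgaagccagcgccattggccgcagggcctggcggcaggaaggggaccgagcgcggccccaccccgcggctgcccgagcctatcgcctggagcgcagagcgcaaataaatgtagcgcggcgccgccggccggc
Pax8: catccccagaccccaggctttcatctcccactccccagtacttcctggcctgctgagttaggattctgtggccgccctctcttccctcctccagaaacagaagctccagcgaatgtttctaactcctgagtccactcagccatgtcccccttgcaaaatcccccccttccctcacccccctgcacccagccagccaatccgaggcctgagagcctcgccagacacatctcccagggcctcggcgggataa

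The balance among the 4 thyroid factors was shifted toward *Pax8* in knockout mice under LID. Lengths for levels per kb were the merged GENCODE exons, 5025 bases for *Hhex* and 1116 for *Foxe1*, while reads were counted on RefSeq genes. The order of different genes per kb therefore depends on these lengths. Compared per kb of exon, *Nkx2-1* at 121 ± 9.27 CPM per kb and *Foxe1* at 125 ± 12.4 CPM per kb were the highest in WT(LID), above *Pax8* at 52.8 ± 4.42 and *Hhex* at 33.7 ± 2.5. In *Glis3*-Pax8Cre(LID) *Pax8*, at 138 ± 12.4 CPM per kb, did not differ from *Nkx2-1* at 143 ± 10.1 beyond their spread, *Foxe1* was at 112 ± 16.6 and *Hhex* at 65.7 ± 8.46. The log2 ratio of *Pax8* to the geometric mean of the other 3 factors, a difference within each mouse, was 0.67 ± 0.18 in WT mice and 1.71 ± 0.26 in knockout mice under LID. The groups did not overlap, and the difference of 1.04 gave p = 0.0286 in a two-sided exact permutation test, the smallest p that 4 against 4 mice allow (adjusted p = 0.0381 over 8 ratio tests). On the ND the ratio was 1.34 ± 0.52 in WT mice and 2.08 ± 0.07 in knockout mice (adjusted p = 0.114, exact permutation test), and without the library labelled WT(ND) replicate 3, whose ratio was 2.11, the difference was 1.00.

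The ratio also fell with LID in WT mice, by 0.67 on the log2 scale (adjusted p = 0.0381, exact permutation test). It fell by 0.41 without the library labelled WT(ND) replicate 3, and by 0.46 with *Nkx2-1* alone as the denominator, which did not pass the test (p = 0.0857, exact permutation test). In knockout mice the difference between the diets was -0.37 (adjusted p = 0.0653, exact permutation test without pairing). An exact sign-flip over the 4 pairs gave p = 0.125, the smallest that 4 pairs allow.

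*Glis3* RNA was not lower in knockout mice and rose with LID in both genotypes. *Glis3* (Entrez 226075, chromosome 19, 28258851 to 28680077, minus strand) was counted over all its exons, so a transcript that lacks exon 5 still gives counts and these values cannot show the deletion. WT(ND) mice had 79.2, 85.8, 81.8 and 45.2 CPM. In *Glis3*-Pax8Cre(ND) it was at 105, 93.0, 101 and 85.8 CPM. Under LID it was at 125, 174, 165 and 161 CPM in WT mice and at 150.3, 119.5, 204 and 185 CPM in knockout mice. Every LID mouse was above every ND mouse of either genotype.

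The rise of *Glis3* with LID was 2.14-fold in WT mice (log2 fold change 1.10, SE 0.19, adjusted p = 0.000332 by edgeR) and 1.71-fold in knockout mice (log2 fold change 0.78, SE 0.19, adjusted p = 0.00824 by edgeR). Both calls held in all 24 alternatives, and without the library labelled WT(ND) replicate 3 the rise in WT mice was 1.16. The genotypes differed by 0.08 under LID (SE 0.19, adjusted p = 0.810), with overlapping groups. On the ND the genotypes did not overlap, and the difference of 0.40 (SE 0.19, adjusted p = 0.157 by edgeR) was not called in any alternative (0.47 without that library). The effect of diet on *Glis3* was not shown to depend on genotype (interaction -0.32, SE 0.27, adjusted p = 0.490, or -0.40 without that library). Endothelial markers also moved with diet in WT mice. All 5 were higher in WT(LID), beside 20.9% of all genes. Their sum rose from between 459 and 580 CPM in WT(ND) to between 1225 and 1390 CPM, while in knockout mice it lay from 598 to 832 CPM on the ND and from 552 to 712 CPM under LID. Their part in the *Glis3* difference was not tested.

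*Glis2* was lower in knockout mice on both diets. *Glis2* (Entrez 83396, chromosome 16, 4594713 to 4615957, plus strand), a family member best known for its role in the kidney, was at 30.3, 28.9, 24.2 and 32.7 CPM in WT(ND). In *Glis3*-Pax8Cre(ND) it was at 18.6, 18.1, 15.4 and 13.8 CPM. Under LID it was at 32.4, 23.9, 24.5 and 28.6 CPM in WT mice and at 19.2, 14.8, 14.9 and 14.8 CPM in knockout mice. No knockout mouse reached the level of any WT mouse, the library labelled WT(ND) replicate 3 included. The log2 fold change was -0.82 on the ND (1.77-fold lower, SE 0.13, adjusted p = 0.000763 by edgeR) and -0.78 under LID (1.72-fold lower, SE 0.13, adjusted p = 0.000364 by edgeR), and both calls held in all 24 alternatives. Without that library the ND value was -0.88 (adjusted p = 0.000289). The interaction was 0.04 (SE 0.19, adjusted p = 0.917, or 0.10 without it), and diet did not move *Glis2* past the test in WT mice (-0.09, SE 0.13, or -0.15 without it) or in knockout mice (-0.04, SE 0.13).

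Fibroblast markers moved with genotype beside *Glis2*. Of 5 fibroblast markers, 2 were lower and none higher in knockout mice in each genotype comparison by edgeR. Of all genes, 9.25% were lower on the ND and 15.4% under LID. None of the 5 markers was at 0 in all mice. Their sum was on the ND from 536 to 742 CPM in WT and from 248.8 to 507 CPM in knockout mice, and under LID from 1062 to 1240 CPM in WT and from 366 to 659 CPM in knockout mice. Between diets in WT mice the markers did not move together, since *Col1a1* and *Col1a2* were higher under LID and *Dcn* and *Pdgfra* lower by edgeR. Their part in the *Glis2* difference was not tested.

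*Glis1* was close to the limit of detection. *Glis1* (Entrez 230587, chromosome 4, 107434719 to 107635059, plus strand) had from 7 to 172 counts per mouse. On the ND its level was 0.340 ± 0.0794 CPM in WT and 0.350 ± 0.193 CPM in knockout mice, and under LID 0.226 ± 0.0152 CPM and 0.166 ± 0.0605 CPM. The widest spread was in *Glis3*-Pax8Cre(ND), whose highest value, 0.627 CPM, rests on 10 counts in the shallowest library. *Glis1* passed the test in none of the comparisons. The genotype differences were -0.45 under LID (SE 0.36, adjusted p = 0.375 by edgeR) and -0.09 on the ND (SE 0.34, adjusted p = 0.891, or -0.18 without the library labelled WT(ND) replicate 3), and the diet difference in knockout mice was -0.96 (SE 0.36, adjusted p = 0.0628). The latter was called in 2 of 24 alternatives, with library size alone (adjusted p = 0.04125) and without *Glis3*-Pax8Cre(ND) replicate 3 (adjusted p = 0.0296).

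Thus neither *Glis1* nor *Glis2* was called higher in knockout mice on either diet. Per kb of exon, *Glis3* was at 8.25 ± 2.12 CPM per kb in WT(ND), beside *Glis2* at 7.60 ± 0.932 and *Glis1* at 0.0961 ± 0.0224. Within WT(ND), *Glis3* and *Glis2* did not differ beyond their spread at the exon lengths used, on which a comparison between genes depends. Under LID *Glis3* was at 17.7 ± 2.45 CPM per kb in WT mice against 7.16 ± 1.04 for *Glis2*, and in knockout mice at 18.6 ± 4.23 against 4.17 ± 0.563. The 3 genes together came to 15.95 ± 1.62 CPM per kb in WT and 15.3 ± 1.43 in knockout mice on the ND, and to 24.9 ± 1.53 and 22.8 ± 4.14 under LID.

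The share of *Glis3* in this sum was 51.2% ± 9.73 in WT and 71.2% ± 2.26 in knockout mice on the ND, and 70.7% ± 6.04 and 81.0% ± 4.32 under LID. Genotype groups did not overlap on either diet, and diet groups did not overlap in either genotype (p = 0.0286 and adjusted p = 0.0381 over 8 ratio tests for each of the 4 comparisons, two-sided exact permutation test without pairing). The knockout mice of the 2 diets were treated as paired by replicate number. Over those 4 pairs the share was higher under LID in 4 of 4. An exact sign-flip permutation gave p = 0.125, the smallest that 4 pairs allow. It could not pass, and so does not decide the diet difference in knockout mice. The share differed between genotypes by 20.02 percentage points on the ND, and by 22.6 without the library labelled WT(ND) replicate 3. Between diets in WT mice it differed by 19.5 percentage points, and by 22.2 without that library. Under LID the genotypes differed by 10.3 percentage points. In knockout mice these counts include transcripts without exon 5.

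**Figure D2:**
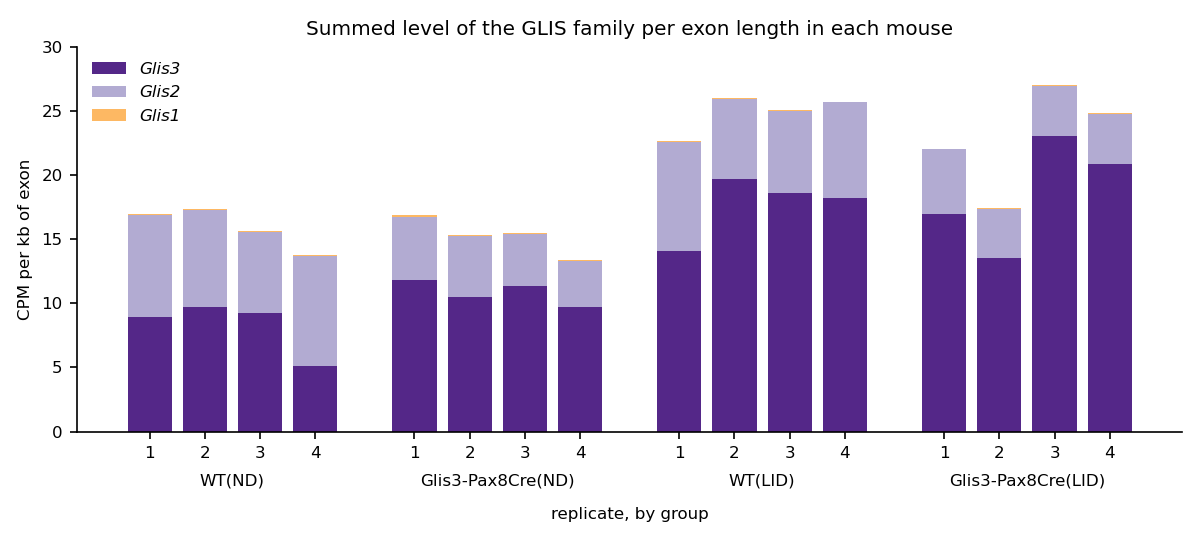
Stacked bars of the level per kb of exon (CPM per kb, axis from 0) of *Glis3*, *Glis2* and *Glis1* in each of the 16 mice, by group and replicate. The *Glis2* part is thinner in the knockout groups, the *Glis3* part is taller in the LID groups, and *Glis1* is barely visible, with group means between 0.0469 and 0.0990 CPM per kb.

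Over the 7 genes, the genotype comparison under LID called 3, with *Pax8* and *Hhex* higher and *Glis2* lower, where 14.9% of all 16630 genes tested were called higher and 15.4% lower. On the ND *Glis2* alone was called, as lower, against a background of 10.3% higher and 9.25% lower. That number was 2 without the library labelled WT(ND) replicate 3, with *Pax8* higher. LID called *Glis3* higher and *Pax8* lower in WT mice (background 20.9% higher and 20.8% lower), and *Glis3* and *Hhex* higher in knockout mice (background 13.1% higher and 12.3% lower). The median log2 fold change of the 7 genes was 0.08 under LID and 0.07 on the ND for genotype, where the medians of all genes were 0.01 and 0.02. Counts out of so few genes cannot be set apart from these backgrounds. The comparisons share groups, so the *Pax8* values that use WT(ND), like those that use any other group, are not independent of one another.

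**Figure D3:**
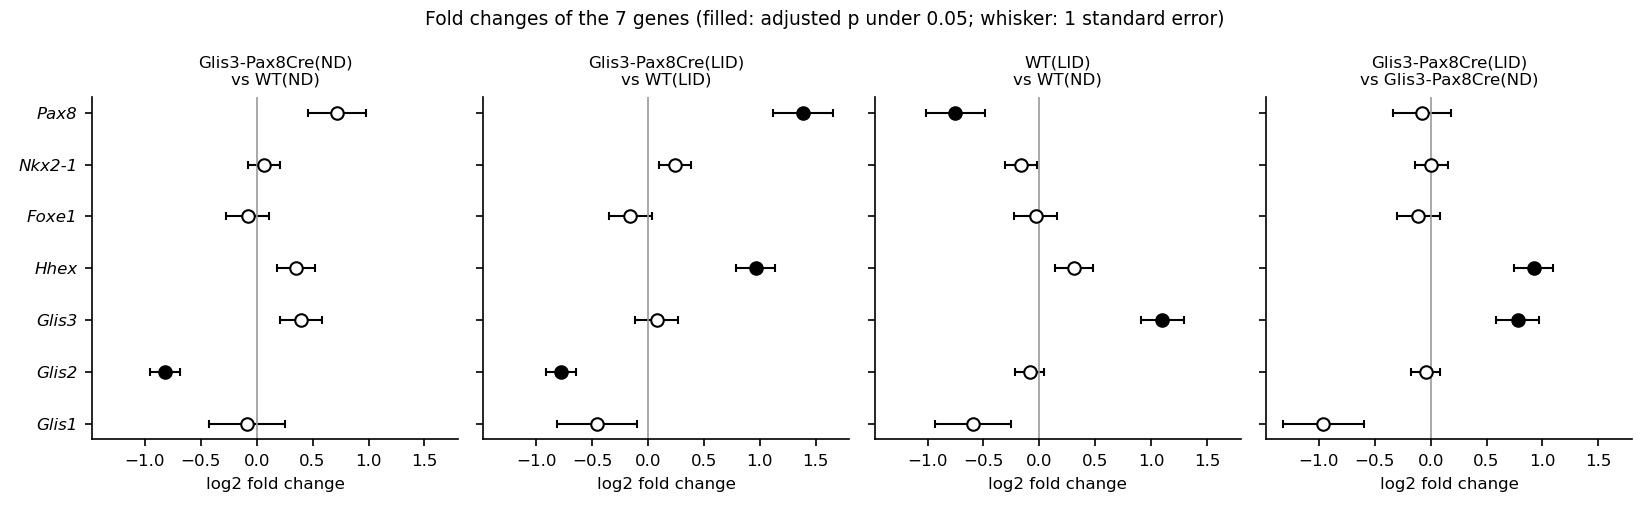
Log2 fold changes of the 7 genes in the 2 genotype comparisons and the 2 diet comparisons; whiskers are 1 standard error (SE) and filled points have an adjusted p under 0.05 by edgeR. *Glis2* is filled in both genotype panels (-0.82 and -0.78), *Glis3* in both diet panels (1.10 and 0.78), and *Nkx2-1* and *Foxe1* are open in all 4.

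None of the 7 genes passed edgeR's test for an interaction of genotype and diet, against 4.43% of all genes with a positive and 7.41% with a negative interaction. At an unadjusted p under 0.05, 1 of the 7 had an interaction, *Hhex*, and DESeq2 called 0 of them. The *Pax8* interaction was 0.67 (SE 0.37, adjusted p = 0.267 by edgeR). It was 0.17 (adjusted p = 0.619) without the library labelled WT(ND) replicate 3.

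Relatives of the thyroid factors were examined next, from a list of 16 *Pax*, *Nkx2*, *Foxe* and *Hhex*-like genes. Of these, 9 of the 16 did not pass the filter on low counts, among them *Pax2*, the paralog of *Pax8* that acts with it in the kidney, which had at most 1 count in any mouse. Of the 7 tested, 3 were higher and 1 lower in knockout mice under LID, beside 14.9% and 15.4% of all genes. On the ND 2 were higher and 1 lower, beside 10.3% and 9.25% (3 and 1 without the library labelled WT(ND) replicate 3). Counts out of 7 genes cannot be set apart from these backgrounds. The median log2 fold change of the tested genes was 0.23 under LID.

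*Nkx2-4*, the closest paralog of *Nkx2-1*, was detected in knockout mice and nearly absent from WT mice. It was at 3.80, 5.35, 5.05 and 5.45 CPM in *Glis3*-Pax8Cre(LID). The *Glis3*-Pax8Cre(ND) mice had 5.83, 6.61, 7.03 and 2.30 CPM. WT(LID) mice had 3, 0, 1 and 2 counts, and WT(ND) mice 2, 0, 37 and 3 counts, the 37 being in the library labelled replicate 3 (0.523 CPM). The fitted log2 fold change, which at these counts depends on the prior count, was 7.70 under LID (SE 1.25, adjusted p = 0.000356 by edgeR) and 5.45 on the ND (SE 1.04, adjusted p = 0.00267). Without that library the ND value was 9.04 (adjusted p = 5.33e-07). The level of *Nkx2-4* stayed far below that of *Nkx2-1*, which was at 406 ± 28.8 CPM in *Glis3*-Pax8Cre(LID), although the 2 genes were not compared per length.

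Of the other 3 NK2 relatives tested, 2 were higher in knockout mice under LID. *Nkx2-3* was at 0.479, 1.45, 0.681 and 1.11 CPM in *Glis3*-Pax8Cre(LID) and at most 0.0912 CPM in WT(LID) (log2 fold change 3.54, SE 0.81, adjusted p = 0.00379 by edgeR). On the ND *Nkx2-3* was not called with all mice (1.20, adjusted p = 0.249) and was called without the library labelled WT(ND) replicate 3 (2.86, adjusted p = 0.000559). *Nkx2-2*, a factor of the ventral neural tube and endocrine pancreas, was at 116 ± 15.5 CPM against 66.3 ± 3.77 CPM (log2 fold change 0.80, SE 0.22, adjusted p = 0.0117). On the ND it was at 96.9 ± 13.4 CPM in knockout and 25.2 ± 11.05 CPM in WT mice (log2 fold change 1.94, adjusted p = 6.73e-05 by edgeR), a larger difference than under LID (interaction -1.14, adjusted p = 0.0252). Without the library labelled WT(ND) replicate 3, where *Nkx2-2* was highest of its group, the ND value was 2.29 (adjusted p = 2.88e-07) and the interaction -1.49 (adjusted p = 0.000283). *Nkx2-9*, the other NK2 relative tested, was not called on either diet (0.13, adjusted p = 0.823, under LID and -0.0438, adjusted p = 0.948, on the ND). *Hlx*, a homeobox gene of mesenchyme, was lower in knockout mice under LID (log2 fold change -1.03, SE 0.18, adjusted p = 0.000562 by edgeR).

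Among the relatives of the GLIS genes, 3 of 8 could be tested, *Gli1*, *Gli2* and *Gli3*, the effectors of Hedgehog signalling. The 5 *Zic* genes were at or near 0. *Gli1*, itself a target of the pathway, was at 0.849 ± 0.0738 CPM in *Glis3*-Pax8Cre(LID) and at 2.65 ± 0.423 CPM in WT(LID) (log2 fold change -1.64, SE 0.23, adjusted p = 6.43e-05 by edgeR). *Gli3* was also lower under LID (-1.11, SE 0.20, adjusted p = 0.000624). On the ND *Gli1* was lower in knockout mice (-1.06, SE 0.23, adjusted p = 0.00555 by edgeR) and *Gli3* was not called (-0.40, adjusted p = 0.179). Without the library labelled WT(ND) replicate 3, 1 of the 3 *Gli* genes was called lower on the ND, beside 9.85% of all genes. All 3 rose with LID in WT mice, with and without that library, beside 20.9% and 20.1% of all genes. *Gli2* was higher in knockout mice, by 0.53 under LID (SE 0.15, adjusted p = 0.0130 by edgeR) and by 1.52 on the ND (SE 0.15, adjusted p = 1.92e-05, or 1.56 without the library labelled WT(ND) replicate 3), and it rose with LID in both genotypes. The fibroblast sums given with *Glis2* apply here too, and their part in the *Gli* differences was not tested.

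A list of 15 factors of thyroid budding and the pharyngeal endoderm gave 4 higher and 4 lower genes in knockout mice under LID and 1 higher and 4 lower on the ND (2 and 4 without the library labelled WT(ND) replicate 3), with median log2 fold changes of -0.34 and -0.26. Of all genes, 14.9% were called higher and 15.4% lower under LID, and 10.3% and 9.25% on the ND. *Gata4*, an endoderm and heart factor, was at 2.67, 6.18, 5.63 and 5.47 CPM in *Glis3*-Pax8Cre(LID) and at most 0.201 CPM in WT(LID) (log2 fold change 5.77, SE 1.30, adjusted p = 0.00414 by edgeR). On the ND the difference in *Gata4* was 3.19 (adjusted p = 0.0548), with 2.78 CPM in the library labelled WT(ND) replicate 3 and at most 0.106 CPM in the other WT(ND) mice, and it was 6.61 (adjusted p = 6.99e-06) without that library. *Isl1*, a LIM homeodomain factor, was higher on both diets (1.97 under LID, adjusted p = 1.04e-05, and 1.11 on the ND, adjusted p = 0.00246, by edgeR, or 1.39 without that library). *Hoxa3*, which patterns the pharyngeal arches, was lower on both (-1.15, adjusted p = 0.000272, and -1.31, adjusted p = 0.000343, or -1.42 without that library). *Gata6* was lower under LID (-1.08, adjusted p = 0.00151). Markers of other endocrine cells of pharyngeal origin moved with genotype on the ND. Of 5 C-cell markers 3 were lower and 1 higher in knockout mice, beside 9.25% and 10.3% of all genes. Their sum lay from 1399 to 2741 CPM against 2982 to 4802 CPM in WT mice, without overlap. Under LID no C-cell marker was called and the sums overlapped (1497 to 2308 CPM and 1583 to 2149 CPM). Of 4 parathyroid markers none was called on the ND, where their sums overlapped, from 5622 to 8780 CPM in knockout and from 6886 to 12570 CPM in WT mice. Under LID 1 of the 4 was lower, beside 15.4% of all genes, with sums of 366 to 3501 CPM and 1674 to 3734 CPM. None of these markers was at 0 in all mice, and their part in the differences of the budding factors was not tested.

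**Figure D4:**
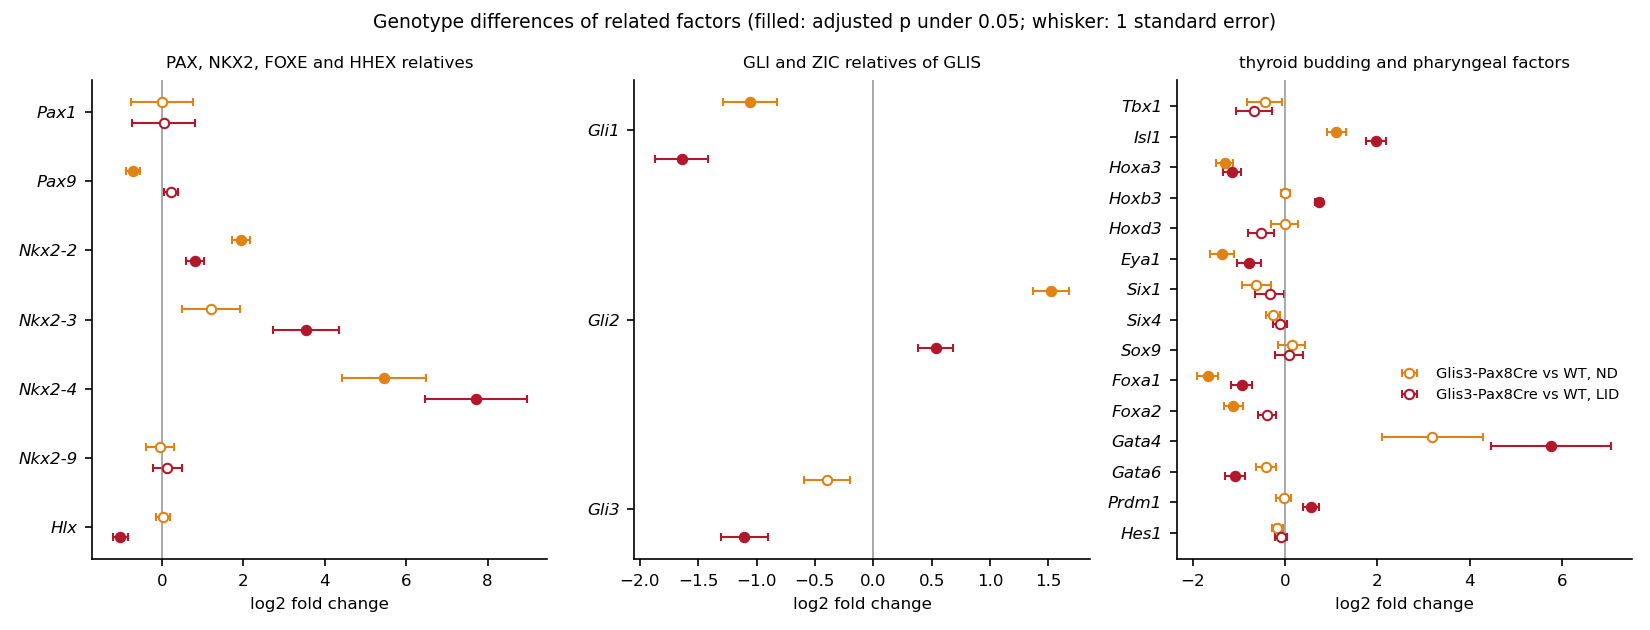
Log2 fold changes between genotypes on the ND (orange) and under LID (red) of the tested relatives of the thyroid factors, of the GLI genes and of the budding factors; whiskers are 1 standard error (SE) and filled points have an adjusted p under 0.05 by edgeR. *Nkx2-4* and *Gata4* lie farthest to the right, at 7.70 and 5.77 under LID, and *Gli1* and *Gli2* lie on opposite sides of 0.

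Of 10 partners and cofactors of these factors, 1 was higher and 1 lower in knockout mice under LID, beside 14.9% and 15.4% of all genes, and none was called on the ND by edgeR, beside 10.3% and 9.25%. At these backgrounds so few calls say nothing particular about the list. Under LID *Itch*, a ubiquitin ligase, was higher by 0.24 (adjusted p = 0.0426), a call lost without the library labelled WT(ND) replicate 3 (0.23, adjusted p = 0.0559), and *Smurf2*, another, lower by a log2 fold change of -0.46 (adjusted p = 0.000399). *Wwtr1*, which encodes the coactivator TAZ, a partner of PAX8, NKX2-1 and GLIS3, rose with LID by 0.90 in WT mice (adjusted p = 1.43e-06 by edgeR, and 0.87 without that library) and by 0.72 in knockout mice (adjusted p = 4.23e-05).

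The follicular genes that the factors control moved in both directions while *Pax8* was high. Of 14 such genes, 2 were higher and 8 lower in knockout mice under LID (median log2 fold change -0.92), beside 14.9% and 15.4% of all genes. The library labelled WT(ND) replicate 3 enters this comparison only through the shared filter, scaling and estimate of spread. Without it 4 were higher and 8 lower, with *Duox1* and *Duoxa1* added. On the ND 2 were higher and 5 lower, beside 10.3% and 9.25% of all genes (2 and 3 without that library). *Slc5a5* was at 16.7 ± 2.32 CPM in *Glis3*-Pax8Cre(LID) and 2029 ± 137 CPM in WT(LID) (log2 fold change -6.92, SE 0.29, adjusted p = 7.78e-10 by edgeR). *Slc26a4*, an anion exchanger (-2.39, adjusted p = 1.13e-05), *Cdh16*, a thyroid and kidney cadherin (-1.60, adjusted p = 5.11e-06), and *Duox2*, a peroxide-forming oxidase (-1.55, adjusted p = 2.33e-05), were also lower under LID. With LID, 9 of the 14 rose and 3 fell in WT mice, with and without that library, beside 20.9% and 20.8% of all genes. In knockout mice 5 rose and 2 fell, beside 13.1% and 12.3%.

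The genes whose levels followed each factor most closely over the 16 mice are given as a description, since all points share libraries and group differences. Log2 CPM of genes with a mean of at least 5 CPM was correlated with that of each factor. *Pax8* was most like *Rbm11* (Pearson's r = 0.98), *Ntn5* (0.98) and *Cpne4* (0.96). Each of these genes separated the knockout mice from all WT mice other than the library labelled WT(ND) replicate 3. *Hhex* was most like *Ncald* (0.97), *Ephb3* (0.95) and *Atp6v1c1* (0.95), and *Glis2* most like *Pdgfa* (0.97), *Kctd15* (0.96) and *Cbr3* (0.95). *Glis3* was most like *Prkar1a* (0.96), the regulatory subunit of protein kinase A, then *Papola* and *Suco* (0.93 each). The closest genes were less close for *Nkx2-1* (*Orai3*, 0.89), *Foxe1* (*Tmem176a*, 0.86) and *Glis1* (*Lynx1*, 0.81).

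**Figure D5:**
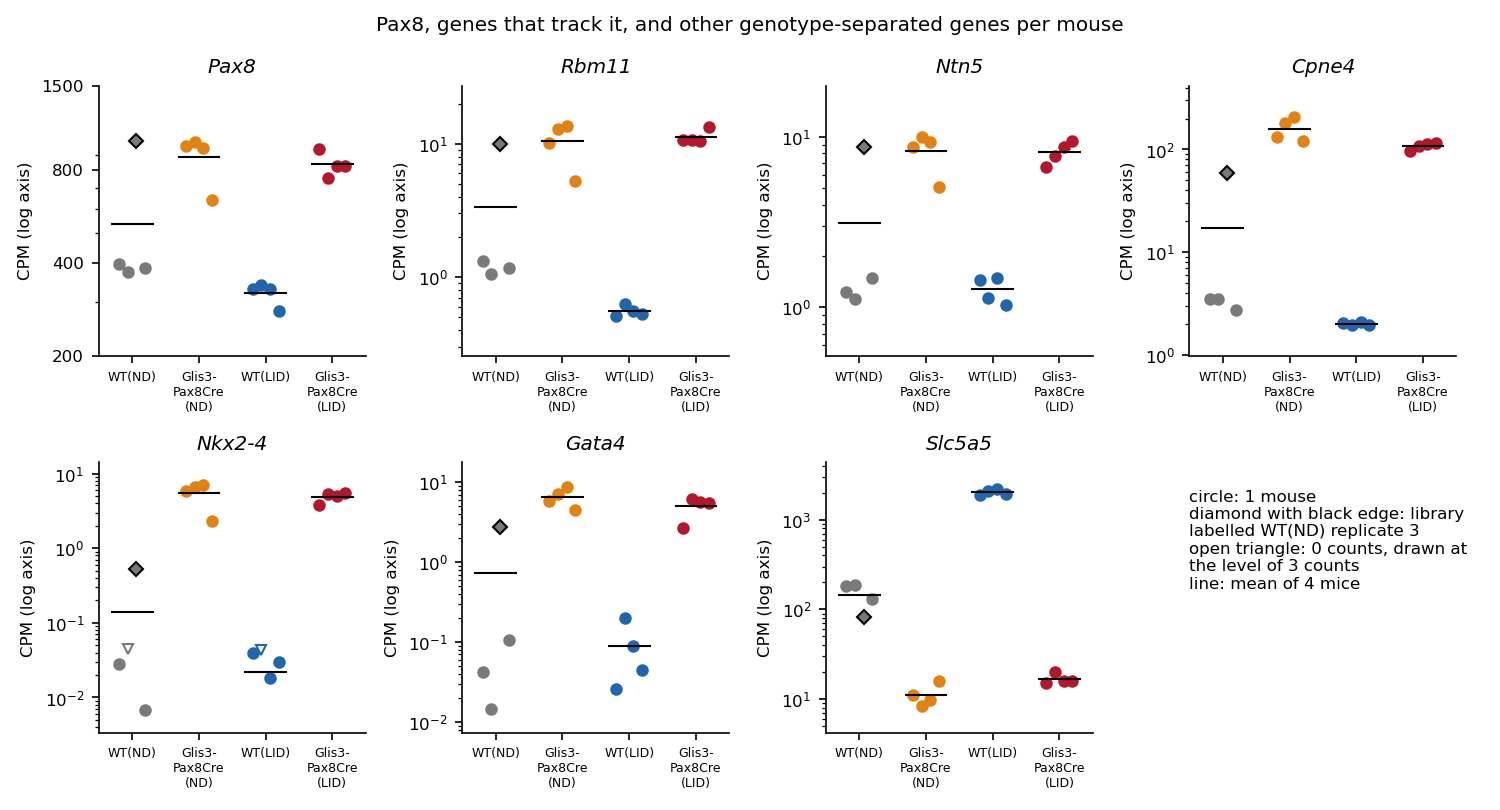
Levels per mouse, in CPM on log axes, of *Pax8*, the 3 genes most like it, *Nkx2-4*, *Gata4* and *Slc5a5*; circles are mice, the diamond is the library labelled WT(ND) replicate 3, open triangles are libraries with 0 counts drawn at the level of 3 counts, and lines are means of 4 mice. The diamond is with the knockout mice for *Pax8* (996 CPM), between the genotypes for *Cpne4* and *Nkx2-4*, at the lower end of the knockout mice for *Gata4* (2.78 CPM), and nearest to the other WT(ND) mice for *Slc5a5*.

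The genes next to the 2 engineered loci were examined because the knockout mice carry altered chromosomes there. *Hhex* lies on chromosome 19 as *Glis3* does, but outside the neighbours examined. The part of this linkage in the *Hhex* difference between genotypes was not tested. Of the 3 tested genes on each side of *Pax8*, 0 of 6 passed edgeR's test between genotypes under LID, 0 had an unadjusted p under 0.05, and their log2 fold changes lay between -0.33 (*Cacna1b* and *Il1rn*) and 0.24 (*Arrdc1*, adjusted p = 0.132). *Arrdc1* was lower in knockout mice on the ND (-0.46, adjusted p = 0.0120, and -0.45, adjusted p = 0.0205, without the library labelled WT(ND) replicate 3). Beside *Glis3*, *Slc1a1*, a glutamate transporter, was higher in knockout mice under LID (1.97, SE 0.23, adjusted p = 1.25e-05 by edgeR), and *Plpp6* (0.37, adjusted p = 0.00207) and *Pum3* (0.24, adjusted p = 0.0152) were higher by less. On the ND *Slc1a1* was not called with all mice, at -0.54 (adjusted p = 0.105), and was called lower without that library, at -0.70 (adjusted p = 0.0188).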

How the data were processed

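RNA of 16 mouse thyroids was extracted with a micro column kit. The sources name both a stranded and an unstranded library kit and 2 instruments without assigning libraries. Per the methods and labels, the authors dropped read pairs whose average base quality did not exceed 20, aligned the others with STAR 2.5 to mm10 and counted them without regard to strand on RefSeq genes with featureCounts 1.5.0-p1. The deposited values are raw counts per gene, not normalized, so reads of overlapping antisense genes cannot be told apart. Nothing states how mice were batched, so p-values measure the spread between these samples.

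The members and gene lists were chosen with earlier results of these data known. In R 4.3.3 with edgeR 4.0.16, filterByExpr kept 16630 of 25611 entries, TMM scaling was applied, and the 16 mice were fitted together by the robust quasi-likelihood method with 1 mean per group. Genes were called where the p adjusted over the whole table was under 0.05. On data simulated for 16517 genes, 91 of 100 genes changed by 2 and 78 of 100 changed by 1 on the log2 scale were recovered, with 6 false calls. The changed genes were drawn only from genes with higher mean counts. This recovery therefore does not cover genes at low counts, such as *Glis1*. Exon lengths came from GENCODE vM21 exons inside the counted coordinates. Ratios were compared by exact permutation. Listed genes named are up to 4 per list with the largest change under LID, the genes named as alike are the 3 with the highest correlation, and *Pax2*, *Wwtr1*, *Sftpb* and the neighbours named were chosen after their values were seen. Alternatives were DESeq2 1.42.0, RLE scaling, library size alone, no filter, 8 mice per fit, the replicate number as a block, each mouse left out, and, chosen after seeing the data, 2 libraries left out together. All pairs of libraries within groups differed by 34.5 or more in chi-squared per degree of freedom, so none was a duplicate of another in its group. Libraries of different groups were not compared in this way. Deviations from group means of mice with equal replicate numbers correlated from 0.21 to 0.65 between the 2 knockout groups, which were therefore treated as paired, and not above 0.1 in every pair elsewhere. *Glis3*-Pax8Cre(ND) replicate 1, however, correlated best with *Glis3*-Pax8Cre(LID) replicate 2, so its pairing is uncertain. The pairing was read from these same data. Replicate 4 had the highest thymocyte marker sum in both knockout groups (2136 CPM on the ND and 271 CPM under LID). The part of these markers in its correlation was not tested. One gene of a list is not reported here by name.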

Additional observations from a re-analysis of the deposited data

Results flagged for a closer look

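Of 104 groups of 4 mice examined for a mouse far from the other 3, 10 had one, where chance gives about 1 in 20. The library labelled WT(ND) replicate 3 was the high one in WT(ND) for *Pax8* (996 CPM), *Nkx2-4* (0.523 CPM), *Nkx2-3* (1.05 CPM) and *Gata4* (2.78 CPM). *Glis3*-Pax8Cre(ND) replicate 4 was low in *Pax8* (643 CPM). WT(LID) replicate 4 was low in *Pax8* (280.2 CPM), WT(LID) replicate 1 low in *Hhex* (151 CPM) and WT(LID) replicate 2 low in *Nkx2-3* (0.0430 CPM, 3 counts). *Glis3*-Pax8Cre(LID) replicate 1 was high in *Glis2* (19.2 CPM), and WT(ND) replicate 4, the deepest library, was low in *Glis3* (45.2 CPM).

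The genotype effect differed between the diets, by edgeR's test of the interaction, for 7 of the named list genes. The log2 effect under LID minus that on the ND was -1.05 for *Hlx*, -1.14 for *Nkx2-2*, -0.99 for *Gli2*, -0.50 for *Smurf2*, -3.22 for *Slc5a5*, -1.63 for *Cdh16* and -0.92 for *Duox2*. Without the library labelled WT(ND) replicate 3 these values lay between -3.04 for *Slc5a5* and -0.53 for *Smurf2*, and all 7 were still called.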

How the results depend on the processing

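The calls of *Pax8*, *Hhex* and *Glis2* between genotypes under LID, of *Glis2* on the ND, of *Glis3* between diets in both genotypes and of *Hhex* between diets in knockout mice held in all 24 alternatives. Depth limits *Glis1*, with 7 to 172 counts per mouse. Between genotypes on the ND, 2 members were called with library size alone, with DESeq2 and with the replicate block over 16 mice, and 3 without WT(ND) replicate 3 and *Glis3*-Pax8Cre(ND) replicate 4. Leaving out 1 mouse gave from 1 to 3. Between diets in WT mice, 1 was called with only the 8 mice of that fit, with or without the replicate block, and from 1 to 2 when 1 mouse was left out. *Pax8* was lost there without the library labelled WT(ND) replicate 3 (adjusted p = 0.142) or any 1 WT(LID) mouse (0.0573 to 0.0829), and with the 2 libraries left out together it was called (0.0270). The fall of its ratio to *Nkx2-1* alone (-0.46) missed the threshold. Between the paired knockout groups, the replicate block changed no member's call (2 members). For the ratio tests named here, an exact sign-flip over the 4 pairs (replicate block) gave p = 0.125. This is the smallest it can give, so it could not pass. These were the *Pax8* ratio between genotypes under LID (1.04) and between diets in WT mice (-0.67). The others were the *Glis3* share between genotypes (10.3 and 20.02 percentage points) and diets (19.5 in WT and 9.82 in knockout mice). For the share, the sign-flip but not the measure was chosen after seeing the data. Replicate numbers did not pair the mice in the other comparisons. The cause of these changes was not tested.

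The genes called between genotypes on the ND fell from 3252 to 1653 with 8 mice, 969 with 8 mice and the block, 2153 without WT(ND) replicate 1 and 2053 without WT(ND) replicate 4, and between diets in knockout mice from 4223 to 2374 with 8 mice.

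Uncalled log2 differences near 0 changed sign. With library size alone, *Foxe1* (0.0295) and *Glis1* (0.0423) on the ND and *Nkx2-1* between diets in knockout mice (-0.12) did, and with 8 mice the latter was -0.00134. With the 2 libraries left out, *Foxe1* was 0.24 between genotypes on the ND and 0.10 between diets in WT mice, and *Nkx2-1* was -0.12 between diets in knockout mice and -0.0522 in the interaction. With 1 mouse left out, the ranges were -0.0440 to 0.20 for *Glis3* between genotypes under LID. Between genotypes on the ND they were -0.0538 to 0.20 for *Nkx2-1*, -0.22 to 0.12 for *Foxe1* and -0.39 to 0.13 for *Glis1*. Between diets they were -0.0869 to 0.10 for *Foxe1* in WT mice, and in knockout mice -0.12 to 0.13 for *Nkx2-1*, -0.31 to 0.0287 for *Foxe1* and -0.14 to 0.0160 for *Glis2*. In the interaction they were -0.29 to 0.0603 for *Foxe1* and -0.0591 to 0.12 for *Glis2*.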
